A study of Mus musculus with 16 samples.

Results

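The response of wild-type mouse liver to dexamethasone was measured by comparing the 4 arrays of treated wild-type liver with the 4 arrays of untreated wild-type liver, 8 of the 16 arrays of a study of the glucocorticoid receptor (GR) in liver. All mice were 3-month-old C57BL/6 males. The wild-type animals carried no engineered allele by their labels, and dexamethasone was the one agent named. The other 8 arrays, from GR knockout liver with and without dexamethasone, share the estimate of spread and serve only to show where the wild-type response differed from theirs. The treatment protocol calls the knockout a liver knockout and says vehicle where the sample labels say no treatment, and the knockout titles also carry the word PBS. The dose, route and duration of dexamethasone, the deleted part of the gene and the driver of the deletion stand in none of the labels or protocols read for this work. The labels number the replicates 1 to 4 and do not say outright that each was a separate mouse, so the p-values measure the spread between these samples.

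Dexamethasone is a synthetic glucocorticoid. It binds GR, the product of Nr3c1, which moves to the nucleus, binds DNA at palindromic response elements and raises transcription of nearby genes, while other genes fall through its contacts with inflammatory transcription factors. In liver, glucocorticoids are known for inducing enzymes of amino acid breakdown and glucose production, for inducing some acute phase proteins together with cytokines, for resetting the clock and for restraining inflammation.

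Each sample was total RNA labelled with Cy3 and hybridised alone to an Agilent mouse array with 41174 probes. A level is the log2 signal of a gene's probe relative to the 75th percentile of its array, so levels of different genes are not comparable. The 75th percentile lay between 309 and 691.1 intensity units over all arrays, and 57.3% to 67.9% of spots were well above background. Both the lowest share and the lowest 75th percentile among the wild-type arrays, 400 units, belonged to untreated array 4. Each slide held 1 group, so slide and treatment cannot be told apart. The median local background was 57 to 61.5 intensity units on the untreated wild-type arrays and 73 to 76 on the treated ones, without overlap. Its part in the differences of dim probes was not tested. Albumin (Alb), the main plasma protein made by hepatocytes, had mean levels of 10.26 untreated and 10.12 treated, and 1 of 11 measured hepatocyte markers was called. The tissue label itself was not tested.

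Of 18505 genes tested, 946 (5.11%) were called higher and 1273 (6.88%) lower in treated wild-type liver by limma at a Benjamini-Hochberg adjusted p under 0.05. Counts of called members in the gene lists below are to be read beside these shares. At an unadjusted p under 0.05 the count was 4905 in both directions. The median difference over all genes was -0.04 on the log2 scale. Among called genes, 418 rose and 420 fell at least 2-fold, but 34 rose and only 6 fell at least 8-fold. The treated arrays were all above the untreated arrays for 1728 genes (9.34%) and all below them for 2366 (12.8%).

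**Figure D1:**
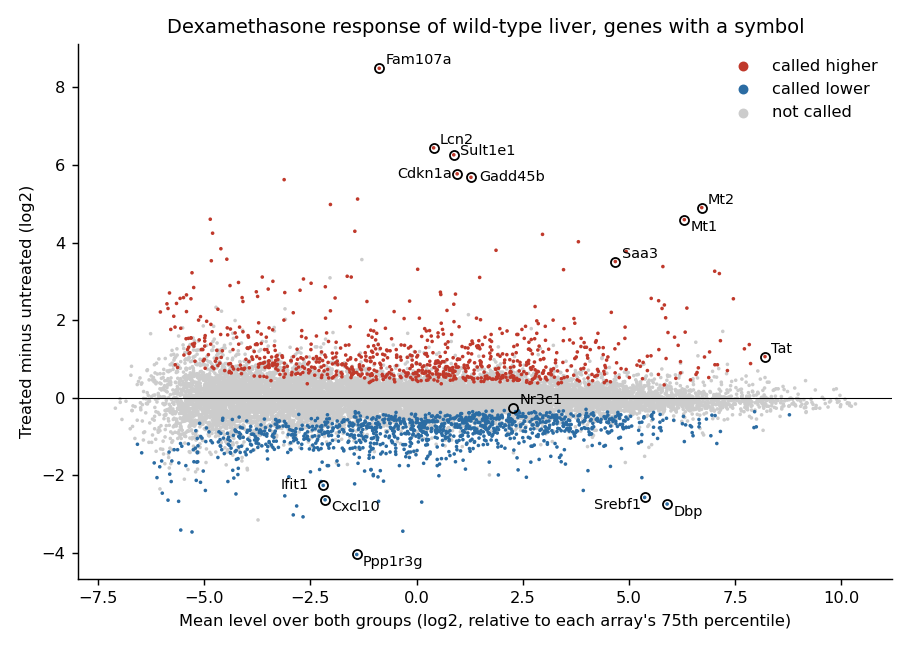
Treated minus untreated difference of wild-type liver (vertical, log2) against the mean level of both groups (horizontal, log2 relative to each array's 75th percentile) for genes with a symbol; red points were called higher, blue points lower, grey points not called, and circles mark genes named in the text. The largest fitted rises exceed the largest falls in size, with Fam107a at 8.49, a probe above background on 1 untreated array, and Ppp1r3g at -4.04.

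Untreated array 4 stood apart from the other 3 untreated arrays. Its place was measured over the 920 genes called at least 2-fold in a fit without it, on a scale where 0% is the mean of the other untreated arrays and 100% the mean of the treated arrays. Its median place was 36.4% (quartiles 12.6% and 57.9%), and at 297 of these genes (32.3%) it lay past the midpoint. The same measure for the other 3 untreated arrays gave 4.9%, -10.1% and 5.3%. Among the treated arrays, array 2 leaned most towards the untreated side, with 23.6%, and the other 3 had -10.3%, 6.7% and 12.9%. The lean was larger for the 482 genes that rose (42.4%) than for the 438 that fell (28.7%), and no test was made of that difference.

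**Figure D2:**
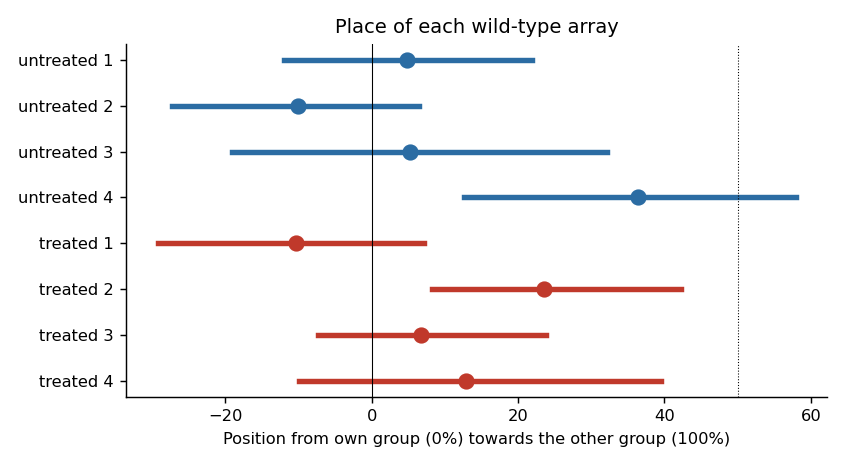
Place of each wild-type array between its own group (0%) and the other group (100%), each measured over the genes called at least 2-fold in a fit without that array; points are medians over genes and bars run from the first to the third quartile. Untreated array 4, at 36.4%, lies farthest from its own group, and treated array 2, at 23.6%, is next.

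Without untreated array 4, 1097 genes (5.93%) were called higher and 1107 (5.98%) lower. Of the 2219 genes called with all arrays, 1831 were also called without it, 388 were not, and 373 were called only without it, 256 of them higher. In the 8 leave-one-out fits, each without 1 wild-type array, 1067 genes kept their call in every fit, 451 of them higher and 616 lower. Leaving out untreated array 2 lowered the counts to 509 higher and 712 lower, and leaving out treated array 1 lowered them to 537 and 702. With the normexp background correction, 509 genes were called higher and 694 lower, and with array weights 2271 and 2733.

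Promoter stretches of some genes described below are shown because the receptor and the interferon regulatory factors are known to bind such letters. The 250 bases before each RefSeq transcription start (build GRCm38.p6) were searched on both strands. The core of the receptor's palindrome, ACANNNTGT, was present in 5.82% of the 825 promoters of all genes called higher, in 3.38% of the 1243 of all genes called lower, and in 4.23% of the 15172 of all genes tested. Among genes called at least 2-fold the shares were 9.22% of 347 promoters for those higher and 3.85% of 364 for those lower. These shares are a description, since alternative starts of 1 gene share sequence and the window holds only part of a gene's regulatory DNA. The stretches shown are chosen examples, and the core was also found before Abcg5, which fell. In the following stretches, from 4 genes that rose, the match is in capitals, read 5′ to 3′ on the gene's strand.
Fam107a, chr14:8309857-8309925, minus strand, match 118 bases before the start: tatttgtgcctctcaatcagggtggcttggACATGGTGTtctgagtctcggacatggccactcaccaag
Lcn2, chr2:32387853-32387921, minus strand, match 152 bases before the start: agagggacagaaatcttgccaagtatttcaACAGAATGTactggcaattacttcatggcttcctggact
Mt1, chr8:94178967-94179035, plus strand, match 92 bases before the start: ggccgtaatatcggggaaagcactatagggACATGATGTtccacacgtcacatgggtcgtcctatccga
Tdo2, chr3:81975868-81975936, minus strand, match 178 bases before the start: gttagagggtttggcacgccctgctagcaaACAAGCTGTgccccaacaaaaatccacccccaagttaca

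The second set comes from 2 genes that fell, and shows the core GAAANNGAA read by interferon regulatory factors, which appears as its reverse complement on these strands and can overlap itself. This core was in 7.96% of the promoters of all genes called lower, 7.52% of those called higher and 6.43% of those of all genes tested. Among genes called at least 2-fold it was in 11.3% for those lower and 7.78% for those higher. The 2 genes are chosen examples, and the core was also found before Irgm1, Saa3, Saa4 and Serpina5, which rose.
Ifit1, chr19:34640750-34640843, plus strand, matches 109, 103 and 84 bases before the start: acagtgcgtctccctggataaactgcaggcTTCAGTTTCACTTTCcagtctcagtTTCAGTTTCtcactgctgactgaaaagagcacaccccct
Ifit3, chr19:34583344-34583465, plus strand, matches 155, 121 and 102 bases before the start: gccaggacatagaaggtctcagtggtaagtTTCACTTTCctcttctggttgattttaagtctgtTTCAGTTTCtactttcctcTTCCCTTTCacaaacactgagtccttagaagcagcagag

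The receptor's own transcript was not called. Nr3c1 had levels of 2.48, 2.47, 2.52 and 2.13 on untreated arrays 1 to 4 and of 1.92, 2.18, 2.17 and 2.26 on treated arrays 1 to 4, and all lists of array values below follow that order. The groups overlapped only through untreated array 4, and the difference of -0.27 ± 0.14 (SE) was not called (adjusted p = 0.253, and 0.139 without that array). Of 29 alternatives, 1 called it, the fit with array weights (-0.35, adjusted p = 0.0409). Knockout liver had mean levels of 0.42 untreated and 0.17 treated, below every wild-type array. Among 15 measured genes of receptor and hormone handling, none was called higher and 2 lower, Srd5a1, a steroid 5-alpha-reductase, at -0.75 ± 0.23 and the corepressor Ncor1 at -0.45 ± 0.14, calls kept in 2 and in 0 of the 8 leave-one-out fits and lost with normexp.

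Genes of glucocorticoid feedback and signalling were called higher for 9 and lower for 1 of 23 measured members, beside the 5.11% and 6.88% of all genes, with a median difference of 0.76. Without untreated array 4 the counts were 8 and 1. The strongest member by p was Gadd45b, a stress-response gene that activates MAP kinase signalling, with untreated levels of -2.05, -1.53, -2.05 and -0.59 and treated levels of 4.77, 2.77, 4.08 and 4.88. Every treated array lay far above every untreated one, the difference was 5.68 ± 0.57 (adjusted p = 0.000105), and it was 6.00 without untreated array 4. Cdkn1a, which encodes the cell cycle inhibitor p21, had -3.20, -3.74, -1.66 and 0.88 untreated and 4.24, 3.03, 3.95 and 4.15 treated. Untreated array 4 lay at 56% of the way to the treated mean, so that the rise of 5.77 ± 0.81 (adjusted p = 0.000771) became 6.71 without it.

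Fkbp5, the co-chaperone that lowers the receptor's affinity for hormone and so closes a feedback loop, had 0.11, -0.46, -1.63 and 1.70 untreated and 2.99, 3.01, 3.16 and 2.97 treated. The treated arrays were nearly identical and the untreated ones were scattered, with a rise of 3.10 ± 0.61 (adjusted p = 0.00507), and its other probes gave 3.10 and 1.25. Ddit4, an inhibitor of mTORC1, had 3.96, 4.50, 2.88 and 5.09 untreated and 8.24, 6.48, 7.58 and 7.65 treated, a 10.4-fold rise of 3.38 ± 0.49 (adjusted p = 0.000884). The transcription factor Cebpd rose by 1.11 ± 0.29 (adjusted p = 0.0211), kept in 2 of the 8 leave-one-out fits. The member that fell was Gadd45a, a growth arrest gene of the same family as Gadd45b, with 0.51, -0.16, 0.01 and -0.96 untreated and -2.12, -1.49, -2.48 and -1.90 treated, a difference of -1.85 ± 0.30 (adjusted p = 0.00184). In knockout liver Fkbp5 and Ddit4 were also called higher by limma, by 2.42 (adjusted p = 0.0426) and 2.49 (adjusted p = 0.0124). Their interactions were not called (adjusted p = 0.809 and 0.621), nor was that of Cebpd, which differed by 0.85 there. Gadd45a differed by 0.66 in knockout liver, with a called interaction of 2.51 (adjusted p = 0.00541).

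Several textbook targets of the receptor, chosen here after their values were seen, did not pass the test. Tsc22d3, which encodes the anti-inflammatory protein GILZ, had 4.29, 4.34, 3.30 and 4.40 untreated and 5.04, 4.83, 4.84 and 4.64 treated. All treated arrays were above all untreated ones, and the difference of 0.76 ± 0.29 had an adjusted p of 0.111. It was called under 3 of 29 alternatives, with the mean of all probes (1.03, adjusted p = 0.0217), with array weights (adjusted p = 0.0187) and without untreated knockout array 1 (adjusted p = 0.048). The clock gene Per1 differed by 0.39 ± 0.23, the MAP kinase phosphatase Dusp1 by 0.54 ± 0.35, the transcription factor Klf9 by 0.26 ± 0.25, and Nfkbia, the inhibitor of NF-kB, by -0.23 ± 0.23, with adjusted p between 0.304 and 0.567.

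The largest fitted difference was that of Fam107a, an actin-binding protein induced by glucocorticoids and stress in brain. Its levels were -6.34, -6.46, -7.46 and -0.25 untreated and 3.98, 2.89, 3.48 and 3.11 treated. The probe was well above background on 1 of the 4 untreated arrays, array 4, which lay at 64% of the way to the treated mean. The difference was 8.49 ± 1.21 (adjusted p = 0.000771), and 5.65 with the normexp background correction. Without untreated array 4 no untreated array was above background, and the treated mean was at least 348-fold higher on the background-subtracted scale. Its size, and its rank among the rises, therefore rest in part on signals not above background.

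Sult1e1, the sulfotransferase that inactivates oestrogens, was next among genes with an enzymatic role. Its levels were -2.27, -2.93, -4.09 and 0.26 untreated and 5.11, 3.40, 3.68 and 3.83 treated, a difference of 6.26 ± 0.75 (adjusted p = 0.000299) without overlap. Tg, the thyroglobulin gene, was not well above background on any untreated array and was on all treated ones, which makes it at least 24.1-fold higher (adjusted p = 0.000177). Rsph4a, a component of ciliary radial spokes, was likewise well above background on the treated arrays alone and at least 5.07-fold higher (adjusted p = 0.000184). Wfdc12, a whey acidic protein family member, rose by 5.12 ± 0.48, the serpin Serpina5 by 4.98 ± 0.88 and the antimicrobial peptide gene Defb1 by 4.29 ± 0.51. With normexp these were 3.50, 3.09 and 2.98, and the log2 differences of Tg and Rsph4a were 2.73 and 1.14. Those of Tg and Rsph4a are smaller than their bounds, which hold for the background-subtracted signal only.

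The smallest p-values among rises belonged to moderate but tightly measured changes. Cab39l, a scaffold of the LKB1 kinase complex, had 4.09, 3.99, 3.96 and 4.53 untreated and 5.89, 5.52, 5.76 and 5.51 treated, a rise of 1.53 ± 0.14 (adjusted p = 0.000105). Its other probes gave 1.87 and 0.32. Emc8, a subunit of the membrane protein insertion complex, rose by 1.36 ± 0.14 (0.56 from another probe), the phospholipid flippase Atp11b by 1.33 ± 0.13 and the endosomal GTPase Rab7 by 1.09 ± 0.12. In all 3 genes, untreated array 4 was the highest untreated array and still lay below every treated array. The corresponding differences in knockout liver were -0.01, 0.03 and 0.03, and the interaction was called for each (adjusted p between 0.00221 and 0.00363).

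**Figure D3:**
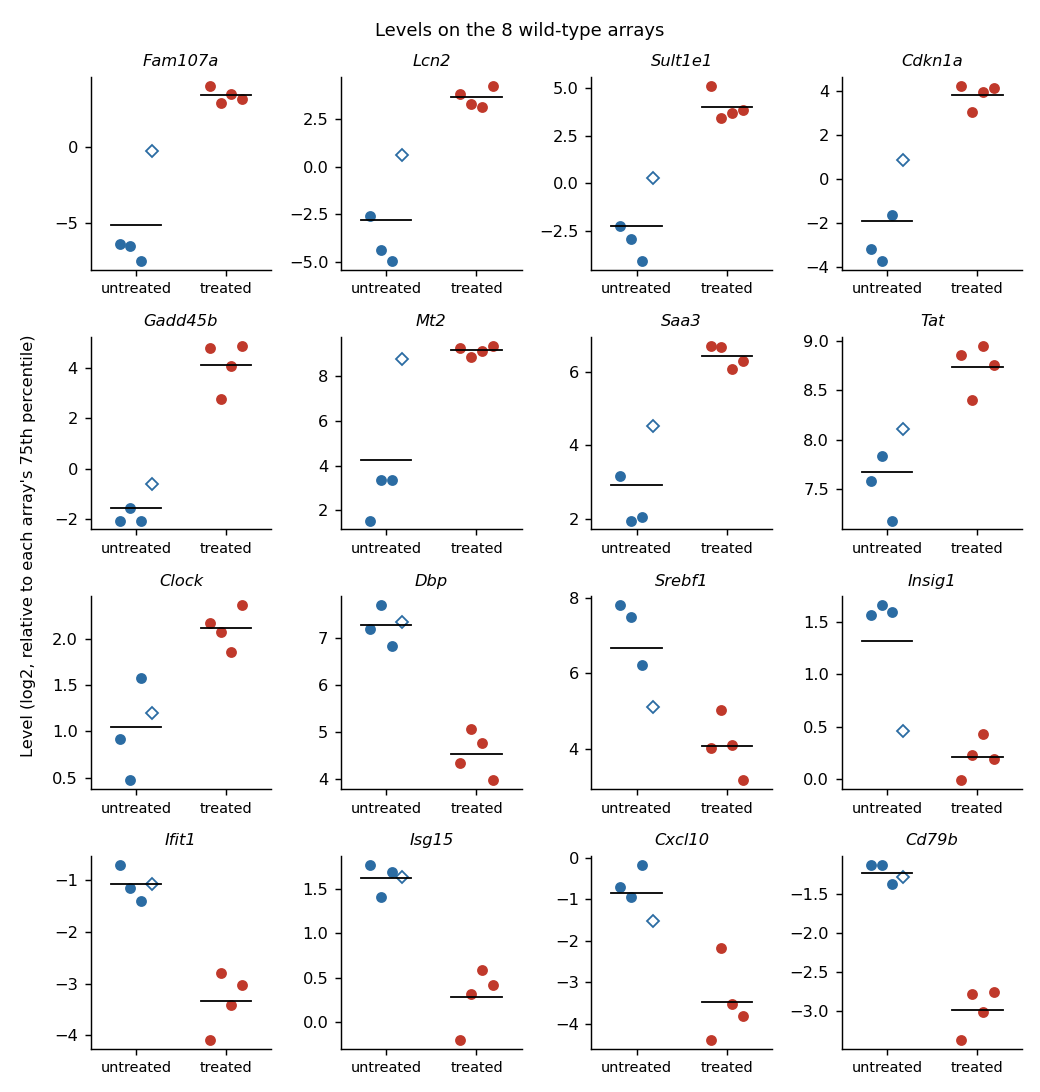
Levels (log2, relative to each array's 75th percentile) of 16 genes on the 4 untreated (blue) and 4 treated (red) wild-type arrays; the open diamond is untreated array 4 and black lines are means of 4 arrays. The diamond sits near or towards the treated arrays for Mt2, Saa3 and Insig1, and among the untreated arrays for Dbp, Ifit1, Isg15 and Cd79b.

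Metallothioneins, which bind zinc and copper, were genes for which untreated array 4 lay beside the treated arrays. Mt2 had 1.54, 3.34, 3.36 and 8.80 untreated and 9.27, 8.89, 9.12 and 9.38 treated, and Mt1 had 1.94, 3.28, 2.71 and 8.10 untreated and 8.52, 8.24, 8.57 and 9.05 treated. In both genes untreated array 4 lay just below the lowest treated array and far above the other untreated arrays. The rise was 4.90 ± 1.15 for Mt2 (adjusted p = 0.0128) and 4.59 ± 1.01 for Mt1 (adjusted p = 0.00949), and without that array 6.42 ± 0.69 and 5.95 ± 0.57. A second probe of Mt1 gave 2.40. Of 16 measured genes of metal and iron handling, 5 were called higher and none lower, with and without that array. They included the zinc importer Slc39a14, with 1.56, 1.86, 1.86 and 2.52 untreated and 3.63, 3.06, 3.45 and 3.67 treated (1.5 ± 0.19, adjusted p = 0.000351).

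Acute phase proteins are secreted by hepatocytes during inflammation. Of 28 measured, 8 were called higher and none lower, with a median of 0.22, and the same counts were found without untreated array 4. Lcn2, the siderophore-binding lipocalin, had -2.58, -4.37, -4.94 and 0.63 untreated and 3.81, 3.30, 3.15 and 4.23 treated, a rise of 6.44 ± 0.93 (adjusted p = 0.000884). Saa3, a serum amyloid A, had 3.17, 1.96, 2.06 and 4.53 untreated and 6.71, 6.68, 6.07 and 6.28 treated, a rise of 3.51 ± 0.57 (adjusted p = 0.00179). The relatives Saa1 and Saa4 rose by 3.26 ± 0.63 and 2.55 ± 0.47, and serum amyloid A genes are similar enough in sequence that their probes may not separate them fully. Untreated array 4 was the highest untreated array for all 4 of these genes and lay at 53% to 74% of the way to the treated mean. Over the 8 members called without it the median was 60.5%.

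Lcn2 is also a neutrophil gene. Of 14 neutrophil markers, 7 passed the filter on dim probes, Lcn2 was called higher and S100a9, a neutrophil calcium-binding protein, lower. S100a9 had -0.98, -0.06, 1.09 and -0.09 untreated and -2.89, -0.94, -2.58 and -1.70 treated (-2.01 ± 0.62, adjusted p = 0.047, kept in 2 of the 8 leave-one-out fits). Without untreated array 4 no neutrophil marker was called lower. S100a8, the partner of S100a9, differed by -1.73 with an adjusted p of 0.0843 (0.0368 in a fit of the wild-type arrays alone), and was well above background on 4 untreated arrays and 1 treated array. Among receptors of inflammatory signals, Il1r1, the interleukin-1 receptor, rose by 1.78 ± 0.46 (adjusted p = 0.0206) and Il6ra, the interleukin-6 receptor, by 1.14 ± 0.26 (adjusted p = 0.0117). Il1r1 had 2.00, 1.80, 2.36 and 4.15 untreated and 4.20, 4.00, 4.31 and 4.92 treated, so that untreated array 4 overlapped the treated arrays, and its call was kept in 4 of the 8 leave-one-out fits. Of 30 genes of NF-kB and cytokine signalling, 3 were called higher and 2 lower, beside the 5.11% and 6.88% of all genes tested. With normexp the counts were 2 and 1.

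Interferon-stimulated genes fell together. Of 31 measured, 19 were called lower and 2 higher, with a median of -1.11, against 6.88% called lower among all genes tested, and without untreated array 4 the counts were 18 and 2 and the median -1.14. Ifit1, an RNA-binding effector, had -0.70, -1.14, -1.39 and -1.06 untreated and -4.09, -2.80, -3.41 and -3.02 treated. The groups were separated by more than the spread of either, and the difference was -2.26 ± 0.33 (adjusted p = 0.000886) with all arrays and without untreated array 4, and -1.48 with normexp. Ifit3, of the same family, had 1.58, 1.34, 1.28 and 1.25 untreated and -1.10, -0.05, -0.29 and -0.10 treated, a difference of -1.75 ± 0.26 (adjusted p = 0.00106). Irf9, the DNA-binding subunit of the interferon-activated factor ISGF3, had 1.44, 1.56, 1.69 and 1.60 untreated and -0.17, 0.65, 0.27 and 0.51 treated (-1.26 ± 0.16, adjusted p = 0.000351). Isg15, the ubiquitin-like modifier, fell by 1.34 on the log2 scale (SE 0.22, adjusted p = 0.0017), from a probe that the deposited annotation places on chromosome 17 while RefSeq places the gene on chromosome 4, so that a related locus cannot be told apart.

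Outside the list, genes with interferon or antiviral roles that fell included Cmpk2, a mitochondrial nucleotide kinase induced by interferon (-1.91 ± 0.21, adjusted p = 0.000186, and -1.14 with normexp), and Mov10, an RNA helicase with antiviral activity (-1.38 ± 0.15, adjusted p = 0.000177), both among the smallest p-values of all falls. The members of the list that rose were Usp18, the protease that removes Isg15 from proteins and restrains interferon signalling, and the GTPase Irgm1. Usp18 had 0.79, 0.71, 0.80 and 0.59 untreated and 2.48, 1.44, 2.35 and 2.52 treated, a rise of 1.47 ± 0.24 (adjusted p = 0.00186), while Irgm1 rose by 0.63 ± 0.17 (adjusted p = 0.0264, kept in 2 of the 8 leave-one-out fits). Untreated array 4 lay with the other untreated arrays for this list: over the 20 members called without it, its median place was 7.5%, and 12 members were within 15 percentage points of 0%. In knockout liver the median difference of the list was -0.28, and the interaction was called for 5 of 31 members, against 4.63% of all genes. These included Irf9, Isg15 and Usp18, with knockout minus wild-type responses of 0.94, 1.29 and -1.75.

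Chemokines and cytokines were called lower for 6 and higher for 1 of 30 measured members, and with normexp for 3 and 1. Cxcl10, the interferon-induced chemokine for T cells, had -0.71, -0.94, -0.17 and -1.53 untreated and -4.39, -2.16, -3.52 and -3.81 treated, a difference of -2.63 ± 0.46 (adjusted p = 0.00267), and -1.59 with normexp. Cxcl12 fell by 0.80 on the log2 scale (SE 0.18), and Ccl6, a macrophage chemokine, rose by 1.17 ± 0.27. Of 19 measured genes of MHC and antigen presentation, 5 were called lower, none higher, and every difference was below 0, with a median of -0.44. H2-DMb1, which loads peptides on MHC class II, had 0.36, 0.26, 1.01 and 0.86 untreated and -1.52, -0.58, -0.67 and -0.26 treated (-1.38 ± 0.31, adjusted p = 0.0108). Its knockout difference was -1.39. With normexp, 1 of the 5 kept its call.

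Several B cell markers fell as well, and in whole liver fewer cells of a type and less RNA per cell cannot be told apart. Of 12 measured, 5 were called lower and none higher (median -0.66), while 4 were called lower without untreated array 4 and 2 with normexp. Cd79b, a chain of the B cell receptor, had -1.13, -1.13, -1.38 and -1.28 untreated and -3.37, -2.78, -3.01 and -2.76 treated (-1.75 ± 0.31, adjusted p = 0.00272). Ighm, the heavy chain of immunoglobulin M, fell by 1.14 on the log2 scale (SE 0.24, adjusted p = 0.00843), with -0.21 from its other probe. Fcmr, the receptor for immunoglobulin M, was not well above background on any treated array and at least 4.64-fold lower, and Ms4a1, which encodes CD20, at least 2.72-fold lower. Neither was called with normexp (-0.94 and -0.64 on the log2 scale), and both differences were then smaller than these bounds. A summed level is the log2 of the sum of the members' levels on the linear scale, so probes with strong signal weigh most in it. For this list it ran from 1.48 to 1.66 on the untreated arrays and from 0.49 to 0.83 on the treated arrays. Ighm, with mean levels of 0.61 untreated and -0.53 treated, made a large part of that sum. In knockout liver Cd79b and Ighm differed by -2.12 and -1.32, and neither interaction was called.

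Markers of T and NK cells were called lower for 1 of 17 measured genes, Cd3g (-0.78 ± 0.20, kept in 4 of the 8 leave-one-out fits and lost with normexp, at -0.37), and their summed level overlapped between groups, from 2.19 to 2.51 untreated and from 1.72 to 2.24 treated. None of 17 Kupffer cell and macrophage markers was called, with summed levels of 6.80 to 7.20 untreated and 6.13 to 6.90 treated. Without untreated array 4, 1 of them was called higher, the haemoglobin scavenger receptor Cd163 (1.16 ± 0.28, adjusted p = 0.0167, against 0.87 ± 0.31, adjusted p = 0.0838). Dendritic cell markers were called lower for 2 of 11, while without untreated array 4 there was 1 lower and 1 higher, and with normexp none. The part of these cells in the falls of interferon, chemokine and MHC class II genes was not tested.

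Of 22 markers of liver sinusoidal endothelium, 2 were called higher and 4 lower, beside the 5.11% and 6.88% of all genes tested. Without untreated array 4 the counts were 2 and 2, beside 5.93% and 5.98% of all genes. Lyve1, the hyaluronan receptor of sinusoidal and lymphatic endothelium, had -1.12, -0.19, 0.09 and -0.08 untreated and 2.83, 2.16, 1.65 and 1.68 treated, a rise of 2.41 ± 0.33 (adjusted p = 0.000692). Vcam1, an adhesion molecule, rose by 1.46 ± 0.33, and Kdr, the VEGF receptor, fell by 1.13 on the log2 scale (SE 0.24). Of 20 stellate cell and fibroblast markers, 2 were called higher and 1 lower, beside the same 5.11% and 6.88%. Ccn2, a matricellular growth factor, had 1.01, 2.16, 2.20 and 1.09 untreated and 4.40, 3.71, 3.86 and 3.89 treated (2.35 ± 0.40, adjusted p = 0.00233), and the growth factor receptor Pdgfra rose by 1.05 ± 0.19, or 0.69 with normexp. The knockout differences were 2.58 for Lyve1, 2.20 for Vcam1, -1.03 for Kdr and 2.90 for Ccn2, none with a called interaction. The falls of Tspan18, a tetraspanin of endothelium, and Plxdc1, a tumour endothelial marker, were -3.02 and -1.66 in wild type and -3.15 and -1.59 in knockout liver, with -1.52 and -1.03 in wild type under normexp.

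The clock list held 19 measured genes, of which 4 were called higher and 2 lower, the same counts as without untreated array 4. Dbp, a D-box transcription factor whose level swings strongly over the day, had 7.20, 7.70, 6.84 and 7.34 untreated and 4.34, 5.06, 4.75 and 3.96 treated. The groups were more than 1 log2 unit apart at their nearest, and the difference was -2.74 ± 0.27 (adjusted p = 0.000105). Arntl, which encodes BMAL1, the activator that drives Dbp, had -2.58, -3.77, -1.0 and -2.27 untreated and 0.00, -0.07, 0.06 and 0.29 treated (2.48 ± 0.53, adjusted p = 0.008). Its partner Clock had 0.92, 0.47, 1.58 and 1.20 untreated and 2.17, 2.07, 1.85 and 2.36 treated (1.07 ± 0.23, adjusted p = 0.00769), with 1.00 and 0.40 from its other probes. The repressor Nfil3 rose by 1.63 ± 0.39 and Ciart, a repressor of the clock, by 1.48 ± 0.44, the latter kept in 2 of the 8 leave-one-out fits and the former lost only without untreated array 2 (adjusted p = 0.0548). Tef, a relative of Dbp, was called lower at -0.80 ± 0.23, kept in 1 of those fits, and its other probes gave 0.27, 0.07 and -0.42. The knockout difference was -0.17 for Dbp, and its interaction of 2.57 was called (adjusted p = 0.00313). The labels name no hour of sampling, and a difference in hour between the groups was not tested.

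The promoter of Ciart carries 3 copies of the E-box CACGTG, the element bound by CLOCK and BMAL1. The E-box was found in 7.61% of promoters of all genes tested. It was in 7.52% of those of all genes called higher and in 6.92% of those called lower. Among genes called at least 2-fold it was in 7.20% for those higher and 6.04% for those lower. Ciart is a chosen example, and the E-box was also found before Tef, Mlxipl and Insig1, which fell.
Ciart, chr3:95882237-95882374, minus strand, matches 116, 58 and 44 bases before the start: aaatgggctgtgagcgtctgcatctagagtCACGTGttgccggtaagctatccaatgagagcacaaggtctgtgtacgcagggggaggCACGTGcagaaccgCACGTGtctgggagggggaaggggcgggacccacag

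Of 18 measured genes of gluconeogenesis and glycogen, 2 were called higher and 3 lower, beside the 5.11% and 6.88% of all genes tested. The regulatory subunits that bring protein phosphatase 1 to glycogen moved in opposite directions. Ppp1r3c had 1.94, 1.31, 1.07 and 2.92 untreated and 5.47, 4.60, 5.17 and 5.21 treated, a 9.87-fold rise of 3.30 ± 0.40 (adjusted p = 0.000292). Ppp1r3g had -0.81, 1.68, 2.22 and -0.67 untreated and -3.58, -3.46, -3.59 and -3.11 treated, the largest fall of the named genes, of -4.04 ± 0.71 (adjusted p = 0.00276). In knockout liver Ppp1r3c differed by 0.53 with a called interaction (adjusted p = 0.0128), while Ppp1r3g differed by -3.08 and its interaction was not called (adjusted p = 0.754). Gys2, the liver glycogen synthase, fell by 0.75 on the log2 scale (SE 0.19), kept in 5 of the 8 leave-one-out fits, and pyruvate carboxylase, Pcx, rose by 0.52 ± 0.14, kept in 3. Of 17 insulin signalling genes, Akt1 and the receptor adaptor Grb14 were called lower, at -0.48 ± 0.11 and -0.81 ± 0.15.

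Amino acid breakdown rose where it changed, with 5 of 28 measured members called higher and none lower. Tat, tyrosine aminotransferase, the classical glucocorticoid-induced liver enzyme, had 7.58, 7.83, 7.18 and 8.11 untreated and 8.85, 8.4, 8.95 and 8.75 treated. The groups did not overlap, and the rise was 1.06 ± 0.24 (adjusted p = 0.0105), or 2.08-fold. Tdo2, which opens the tryptophan ring, had 5.37, 5.07, 5.09 and 5.65 untreated and 7.07, 6.75, 6.87 and 6.72 treated (1.56 ± 0.33, adjusted p = 0.00753). Aass, of lysine breakdown, rose by 1.47 ± 0.22 and the serine dehydratase relative Sdsl by 1.32 ± 0.23. Sds, serine dehydratase itself, had 5.99, 5.87, 5.49 and 7.01 untreated and 7.30, 6.75, 7.23 and 7.38 treated. It was not called with all arrays (1.08 ± 0.36, adjusted p = 0.0632), and was without untreated array 4 (1.38 ± 0.33, adjusted p = 0.0163). In all, 8 of 29 alternatives called it, with a lowest adjusted p of 0.00699 with array weights. Of 11 urea cycle genes, 2 were called higher, the mitochondrial ornithine carrier Slc25a15 by 1.63 ± 0.22 and the aspartate-glutamate carrier Slc25a13 by 0.52 ± 0.15, the latter kept in 1 of the 8 leave-one-out fits (adjusted p = 0.0553 without untreated array 4) and lost with normexp.

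Several genes that control lipid synthesis fell, and untreated array 4 lay close to the treated arrays here. Of 23 measured genes of fatty acid and triglyceride synthesis, 5 were called lower and 2 higher. The list as a whole shifted little, with a median of -0.09 (-0.22 without untreated array 4) and 10 differences above 0. Srebf1, the transcription factor that drives fatty acid synthesis in response to insulin, had 7.80, 7.48, 6.23 and 5.12 untreated and 4.03, 5.03, 4.11 and 3.17 treated. Untreated array 4 was nearly as low as treated array 2, and the difference was -2.57 ± 0.52 (adjusted p = 0.00602), or -3.09 ± 0.46 without it. Acly, ATP citrate lyase, had 2.30, 2.39, 2.05 and 0.88 untreated and 0.90, 0.26, 0.46 and 0.73 treated, so that untreated array 4 overlapped the treated arrays (-1.31 ± 0.32, adjusted p = 0.0167, and 0.0539 and 0.0625 without untreated arrays 1 and 2). Mlxipl, the glucose-sensing factor ChREBP, fell by 1.02 on the log2 scale (SE 0.26, kept in 4 of the 8 leave-one-out fits). The rises were Insig2, which retains SREBP in the endoplasmic reticulum, by 2.30 ± 0.43, and the phosphatidate phosphatase Lpin1, by 1.68 ± 0.39. Insig1, the relative of Insig2 that SREBP itself induces, moved the other way, with 1.57, 1.66, 1.60 and 0.46 untreated and -0.01, 0.23, 0.43 and 0.19 treated (-1.11 ± 0.27, adjusted p = 0.0167, kept in 5 of those fits, and -0.28 from another probe).

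Cholesterol synthesis and uptake was called lower for 6 of 25 measured members and higher for none, with a median of -0.42, which became 8 members and -0.77 without untreated array 4. Stard4, a sterol carrier, had 3.75, 4.10, 3.97 and 2.63 untreated and 1.12, 2.05, 1.72 and 1.35 treated (-2.05 ± 0.28, adjusted p = 0.000663). The sterol exporter Abcg5 fell by 0.94 on the log2 scale (SE 0.21, adjusted p = 0.00914). Lss, lanosterol synthase, was called at -1.36 ± 0.27, but differed by -0.37 with normexp and by -0.39 and -0.21 on its other probes. Mvd, mevalonate diphosphate decarboxylase, was not called with all arrays, and was called without untreated array 4 (-1.62 ± 0.40, adjusted p = 0.0183) and with array weights (-1.35, adjusted p = 0.00785).

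Genes of lipoproteins and lipases were called higher for 3 and lower for 1 of 29, beside the 5.11% and 6.88% of all genes tested. Without untreated array 4 they were called higher for 6 and lower for none. Plin5, a lipid droplet protein of oxidative tissues, had 4.81, 4.67, 4.86 and 6.5 untreated and 7.82, 7.0, 7.58 and 7.69 treated (2.31 ± 0.35, adjusted p = 0.00124). Its relative Plin4 rose by 1.84 ± 0.44, fitted with 3 treated arrays because the spot on treated array 1 was an outlier, and lost its call without treated array 3 (adjusted p = 0.0575). The triglyceride lipase Pnpla2 rose by 1.05 ± 0.20 (adjusted p = 0.00429). Apoa5, which promotes triglyceride clearance, was called lower at -0.75 ± 0.22 (adjusted p = 0.0374). That call was kept in 3 of the 8 leave-one-out fits and lost in the others, among them the fit without untreated array 4 (-0.66 ± 0.24, adjusted p = 0.0905), and lost with normexp. Of 26 genes of fatty acid oxidation and ketogenesis, 1 was called, the receptor Ppara, at -0.88 ± 0.20. Of 21 bile acid genes, 2 were called, both lower: Hsd3b7, a bile acid synthesis enzyme, at -0.72 ± 0.11 and Fgfr4, the receptor through which gut FGF15 restrains that synthesis, at -0.91 ± 0.15.

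Drug metabolism was led by 1 subfamily. Of 30 cytochrome P450 genes, 4 were called higher and none lower, and 3 of the 4 were Cyp2b genes, which metabolise drugs and steroids. Cyp2b10, a target of the receptor CAR, had 1.11, -0.36, 0.61 and 2.10 untreated and 5.36, 4.71, 5.03 and 5.19 treated, an 18.5-fold rise of 4.21 ± 0.83 (adjusted p = 0.00497). Cyp2b9 and Cyp2b13 rose by 3.77 ± 0.86 and 4.02 ± 0.88. These genes are close copies, all 3 had the same order of untreated arrays, and their signals may not be separate. Second probes gave 4.08 for Cyp2b10, 4.20 for Cyp2b9 and 0.63 for Cyp2b13. Nr1i3, which encodes CAR, had 3.29, 3.61, 2.98 and 3.46 untreated and 2.12, 2.08, 2.52 and 2.84 treated, and was called lower (-0.95 ± 0.27, adjusted p = 0.0313), a call kept in 2 of the 8 leave-one-out fits (adjusted p = 0.0641 without untreated array 4). Of 35 conjugation genes and nuclear receptors, 4 were called higher and 3 lower, beside the 5.11% and 6.88% of all genes tested. Sult1d1, a sulfotransferase, rose by 2.06 ± 0.40 and the monooxygenase Fmo5 by 1.69 ± 0.24.

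Among hepatocyte transcription factors 3 of 21 were called higher and 2 lower, beside the 5.11% and 6.88% of all genes tested. Gata6 rose by 0.96 ± 0.18, with 0.84 and 0.04 from its other probes. Hnf4a rose by 0.58 ± 0.17 (adjusted p = 0.0375), with 0.55 and 0.05 from its other probes, a call kept in 1 of the 8 leave-one-out fits, that without untreated array 4, and lost with normexp. Lgr5, a Wnt pathway receptor of pericentral hepatocytes, had -0.10, -0.51, -0.63 and -0.18 untreated and -2.26, -2.02, -3.0 and -3.02 treated (-2.22 ± 0.36, adjusted p = 0.00162), the only call among 12 pericentral markers. Krt23, a keratin, had 1.5, 0.7, 1.76 and 1.90 untreated and -1.82, -1.77, -0.97 and -0.33 treated (-2.69 ± 0.48, adjusted p = 0.00287). Other falls with small p-values were Ndst1, a heparan sulfate sulfotransferase (-1.05 ± 0.11), the adenylyl cyclase Adcy6 (-1.59 ± 0.17), and Lima1, an actin-binding protein (-1.48 ± 0.17), each with adjusted p between 0.000177 and 0.000207. The other probes of Ndst1 gave -1.07, -0.45 and -0.38.

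None of 24 complement genes and none of 28 oxidative phosphorylation genes was called by limma, with medians of -0.05 and -0.03. In these lists the smallest adjusted p-values were 0.0805 for C2 and 0.129 for Ndufb10. Of 23 genes of the integrated stress and unfolded protein response, 1 was called higher, Herpud1, by 0.85 ± 0.23, kept in 2 of the 8 leave-one-out fits and lost with normexp. Of 30 genes of DNA replication and cell cycle, 3 were called higher and 3 lower, beside the 5.11% and 6.88% of all genes tested, with Cdkn1a and Gadd45b as the largest and the cyclin Ccnd2 at -1.02 ± 0.17.

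**Figure D4:**
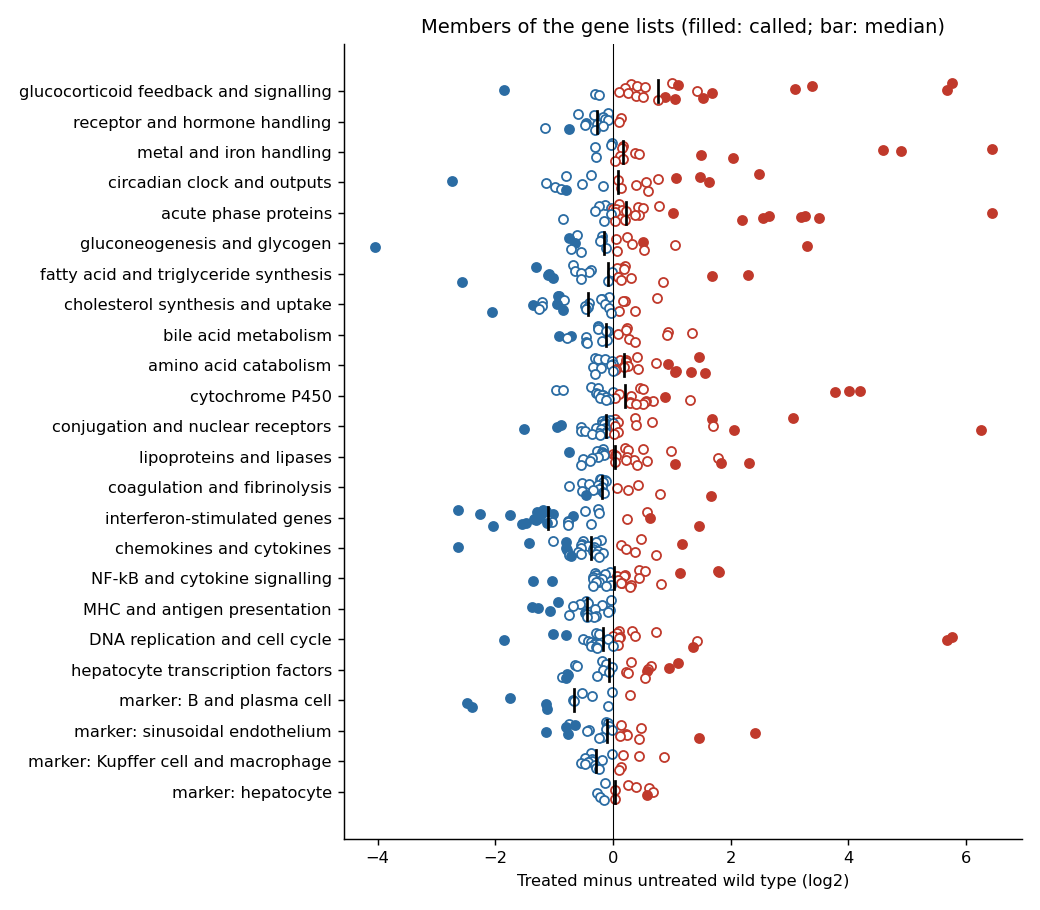
Treated minus untreated difference (log2) of each measured member of 20 pathway lists and 4 marker lists; filled points were called, open points were not, red is above 0 and blue below, and the black bar is the median. The interferon list lies mostly below 0 with a median of -1.11, and the glucocorticoid feedback list mostly above it with a median of 0.76.

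Arranged by list, the place of untreated array 4 ran from the treated side to the untreated side. Over the members called without it, its median place was 83.5% for 6 genes of lipoproteins and lipases, 74% for 8 of fatty acid and triglyceride synthesis, 66.5% for 8 of cholesterol synthesis and uptake, 61% for 5 of metal and iron handling and 60.5% for 8 acute phase proteins. It was 48% for 9 genes of glucocorticoid feedback, 39.5% for 4 cytochrome P450 genes and 21% for 6 clock genes. For 20 interferon-stimulated genes it was 7.5% (range -23% to 53%) and for 4 MHC genes 6% (-25% to 36%). For 6 chemokines and cytokines it was 0% (-38% to 40%) and for 4 B cell markers 9.5% (4% to 37%). In these lists 12, 2, 2 and 3 members lay within 15 percentage points of 0%. No test was made of the differences between lists, and lists share members.

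**Figure D5:**
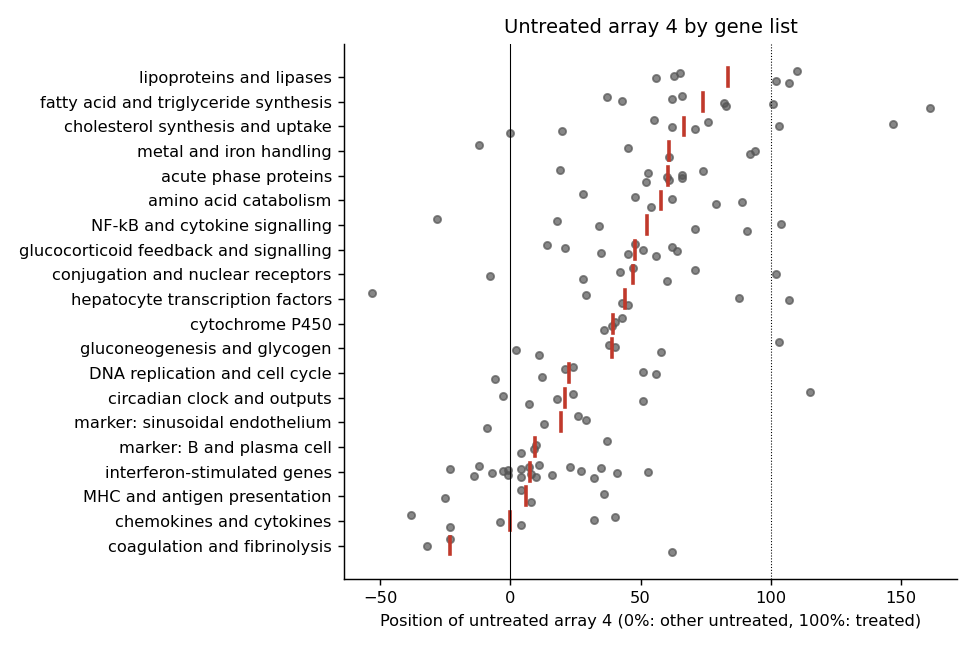
Place of untreated array 4 between the mean of the other 3 untreated arrays (0%) and the mean of the treated arrays (100%) for members called in the fit without it, by list (lists with at least 3 such members); points are genes and red bars medians. Lipid, metal and acute phase lists have medians of 60.5% to 83.5%, and interferon, MHC, chemokine and B cell lists medians of 0% to 9.5%.

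Compared with knockout liver, the response differed by the interaction test at 856 genes (4.63%), and 447 of the 2219 genes called in wild type were among them. That count was 100 with normexp, 2736 with array weights, 500 without untreated wild-type array 2, 1489 without untreated knockout array 1, and 563 and 512 without treated knockout arrays 2 and 3. Gadd45b, Wfdc12 and Defb1 differed by 0.76, 1.08 and -0.39 in knockout liver, with adjusted interaction p of 0.00421, 0.00507 and 0.00328. Rsph4a, Tg and Sult1e1 also passed, with adjusted interaction p of 0.000825, 0.00313 and 0.0413. The probes of Rsph4a and Tg were each well above background on 1 untreated knockout array, and on 0 and 1 treated ones. The other members of the largest rises did not pass. Lcn2 had a knockout difference of 1.66 with an adjusted interaction p of 0.0534, Cdkn1a 1.80 with 0.065 and Serpina5 1.55 with 0.151. Fam107a had a knockout difference of 3.77 with an adjusted interaction p of 0.151. Its probe was not well above background on any untreated knockout array and was on all 4 treated ones. For Mt1 and Mt2 the knockout differences were 2.80 and 2.82, and the adjusted interaction p was 0.636 and 0.623. Srebf1 differed by 0.29 in knockout liver, with a called interaction of 2.86 (adjusted p = 0.0403).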

How the data were processed

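RNA of 16 livers in 4 groups of 4 was measured on 1-colour Agilent arrays. Per the file headers and the submitters' processing notes, the authors deposited the processed intensity of each spot (Agilent Feature Extraction 9.5, background-subtracted, not normalized between arrays), with its mean and background intensity and flags of other kinds. A deposited table of the whole series held the same intensity values (largest difference 0). Probe positions are on mm7 as deposited. RefSeq named 23082 probes by accession and 9655 by symbol, and left 8437 unnamed.

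The 1639 control spots were left out of 45018, 2121 spots (0.31%) flagged as outliers were dropped, and repeat spots of a probe averaged. The log2 intensity minus the array's 75th percentile was used. A probe had to be well above background on 3 of the 4 arrays of some group (26794 passed), and each gene was represented by its brightest probe (18505 genes, of which 15155 carry symbols). The fit used limma 3.58.1 (R 4.3.3) on all 16 arrays, with 1 mean per group and 12 residual degrees of freedom, two-sided tests and Benjamini-Hochberg adjustment over all genes, called under 0.05. No SE is shown where a fold is a bound, which sets the bright group's mean against the dim group's mean floored, per array, at the lowest signal among probes well above background. Such a bound holds for the background-subtracted signal and can exceed the difference found with normexp. The number of arrays limits the precision. On simulated data for this comparison (18481 genes, 200 changed, 5 draws), 59% of changes of 1 log2 unit and 88.8% of changes of 2 were recovered. Of the calls made there, 6% were false. The simulated noise was independent between arrays, with no array leaning as untreated array 4 did. The 200 changed genes were also fewer than the 2219 called in the real data, and the adjustment depends on that number. Recovery in the real data may therefore differ.

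Genes were named by a rule: Nr3c1; the 12 largest rises and falls and the 10 of each with the smallest p; the 8 largest of each called only without untreated array 4; and up to 4 called members per direction of 29 pathway and 15 marker lists, otherwise 2. It gave 173 genes, of which the text prints a selection (some members of the lists are not reported here), and 122 had a RefSeq promoter. Alb, S100a8 and the textbook targets named as such were added after their values were seen. The members, lists and rule were chosen with earlier results of these data known. Of the named genes, 1 had a probe on another chromosome than RefSeq's. Alternatives were background correction, normalization, filters, probe choice, variance model, array weights, the replicate number as a block, and each array left out. Plots used matplotlib 3.10.9 (Python 3.11.15).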

Additional observations from a re-analysis of the deposited data

Results flagged for a closer look

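Among 230 sets of 4 array values (115 genes in the untreated and treated wild-type groups), 14 had 1 array whose gap to the nearest other array was most of the range. Chance gives about 1 in 20. Untreated array 4 was that array in 6 sets. It was low for Nr3c1 at 2.13 (others 2.47 to 2.52) and for Insig1 at 0.46 (1.57 to 1.66). It was high for Fam107a at -0.25 (-7.46 to -6.34), for Emc8 at 2.06 (1.53 to 1.60), for Aass at 7.11 (6.12 to 6.25) and for Plin5 at 6.5 (4.67 to 4.86). Of the other untreated arrays, array 1 was low for Fgfr4 at 3.34 and array 3 for Tsc22d3 at 3.30.

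The treated arrays gave 6 such sets, all with a low array. Array 2 was low for Usp18 at 1.44 and for Vcam1 at 1.61. Array 3 was low for Fcmr at -6.21, for Rab7 at 4.32 and for Pdgfra at -1.79, and array 4 for Adcy6 at -0.66.

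The response differed between wild-type and knockout liver at 856 genes by the interaction term. Knockout minus wild-type responses below 0 included those of Rsph4a at -5.8, Tg at -5.67, Gadd45b at -4.92, Defb1 at -4.68, Sult1e1 at -4.09 and Wfdc12 at -4.04. They also included Ppp1r3c at -2.77, Usp18 at -1.75, Emc8 at -1.37, Atp11b at -1.30 and Rab7 at -1.05. Those above 0 included Srebf1 at 2.86, Dbp at 2.57, Gadd45a at 2.51, Isg15 at 1.29 and Irf9 at 0.94. Other genes named in the text also had a called interaction, in both directions, and are not listed here.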

How the results depend on the processing

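The counts of 946 genes called higher, 1273 called lower and 856 with a called interaction became 509, 694 and 100 with normexp and 2271, 2733 and 2736 with array weights. Requiring 2-fold as well left 418 higher and 420 lower, and no filter on dim probes left 543 interactions. With 1 of the 16 arrays left out, the counts ran from 509 to 1412 higher, from 702 to 1889 lower and from 500 to 1489 for the interaction. The cause was not tested. The replicate numbers did not pair treated with untreated wild-type arrays (correlations of deviations 0.119, 0.224, -0.045 and 0.104), and with the replicate number as a block the counts were 945, 1234 and 1065. Of 102 called genes that the text names, 21 lost their call without some 1 wild-type array, 10 with normexp, 6 in a fit of the wild-type arrays alone and 5 with the block, among them Nr1i3, Hnf4a and S100a9. None of these called genes changed direction under the alternatives run. Of 13 named genes not called, 8 were called under at least 1 of 29 alternatives, all 8 with array weights: Nr3c1, Tsc22d3, Sds, Mvd, Cd163, S100a8, C2 and Ndufb10. The 29 include the 2-fold requirement and the deposited table with the same values, neither of which could add a call. Of the genes not called, albumin turned to 0.04 with quantile normalization. The place of untreated array 4 was 37.8% with normexp, against 36.4%. The number of arrays, 4 a group, limits the precision, and 57.3% to 67.9% of spots were well above background.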
